A study of Mus musculus with 15 samples.

Results

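The nuclear-encoded subunits of the mitochondrial respiratory chain were followed across 15 RNA-seq libraries of PDGFRbeta+ brain cells from neonatal mice. PDGFRbeta is a receptor of pericytes and other mural cells, the cells that wrap small blood vessels. The libraries form 4 groups: wild-type mice (WT) after a sham procedure (WT sham, n = 3), WT mice 24 h after hypoxic-ischemic brain injury (WT HI, n = 4), microRNA-210 knockout mice (KO) after sham (KO sham, n = 4) and KO mice 24 h after the injury (KO HI, n = 4). The knockout is given by genotype only, and age, strain and the animals behind each library are not given in the sources used here. The labels number the libraries but do not say that each came from a separate animal, so p-values measure the spread between these libraries. Libraries are named below by group and label number.

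Members were chosen by symbol. Lines of the count table with values were taken if their symbol began with Ndufa, Ndufb, Ndufc, Ndufs, Ndufv, Uqcr, Cox4i, Cox5, Cox6, Cox7, Cox8 or Atp5, or was Sdha, Sdhb or Sdhc. The Ndufaf assembly factors and Ndufa4, Ndufa4l2 and Cox4i2 were left out. This gave 82 of 17892 genes with values: 7 core and 31 accessory subunits of complex I, 3 of complex II, 8 of complex III, 16 of complex IV and 17 of complex V. A filter on low counts kept 80 of the 82 among 14853 tested genes, and Cox8b and Cox7b2 fell below it. The Cox7c-ps1, Ndufs5-ps, Ndufa11b and Cox8c lines of the table held no values.

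The respiratory chain sits in the inner mitochondrial membrane. Complexes I and II take electrons from NADH and succinate, complex III passes them to cytochrome c, and complex IV gives them to oxygen. The proton gradient built along the way drives complex V, the ATP synthase. The core subunits of complex I carry its catalysis, while accessory subunits surround and stabilise it. Several complex IV and complex V subunits exist as alternative isoforms, among them heart and muscle forms and a form best known from testis. MicroRNA-210 is induced by low oxygen and is known for repressing genes of iron-sulfur cluster assembly and of the respiratory chain, which is why this module is of interest in a miR-210 knockout.

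The sequences of interest here are the microRNA removed in KO and the short promoter elements shared by several members. The mature strand of miR-210-3p, from the RefSeq table on GRCm38.p6 at chr7:141221407-141221428 on the minus strand, is given with its seed, bases 2 to 8, in capitals.

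miR-210-3p: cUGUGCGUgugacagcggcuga

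A match to these 7 seed bases, ACGCACA on the transcript, was searched in the annotated UTR after the stop codon of the principal transcripts of GENCODE M21 (GRCm38). It was present in 1 of the 80 members with such a UTR (1.25%) and in 584 of 20808 genes with one (2.81%). The members' UTRs were short, with a median of 157 bases against 849 over all genes. The member was Ndufa13, an accessory subunit of complex I, and its site is shown with the match in capitals.

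Ndufa13 site: ggcctgagccaACGCACAtaataaagagt

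Ndufa13 was measured at 56.2, 67.4 and 68.1 CPM (counts scaled to the library size) in WT sham, 57.1, 61.8, 64.2 and 79.0 CPM in WT HI, 132.2, 98.8, 67.9 and 61.9 CPM in KO sham 1, 3, 4 and 6, and 70.9, 118.2, 113.0 and 66.4 CPM in KO HI 1 to 4. The groups overlapped in every comparison. Its log2 fold change in KO against WT was 0.50 ± 0.27 (SE) in sham and 0.49 ± 0.25 after HI, near the medians of all members given below, and neither passed the test (edgeR, adjusted p = 0.477 and 0.189). Among the genes outside the member list that were examined, Iscu, an iron-sulfur cluster scaffold and a known miR-210 target, held the match, while Cox10, Sdhd and Ndufa4 did not in these annotated UTRs.

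Promoter windows of 300 bases were available in the RefSeq table (GRCm38.p6) for 68 of the 82 members, as 73 windows. NRF1, GABPA and YY1 are transcription factors known for driving respiratory chain genes, and their motifs were searched on both strands: GCGCATGC for NRF1, CCGGAAG for the ETS factor GABPA, and AAGATGGCG for YY1. The NRF1 letters stood in 10 member windows (13.7%) against 2.71% of all 32851 windows. The ETS letters stood in 16 member windows (21.9%) against 8.86% of all, and the YY1 letters in 7 (9.59%) against 1.4% of all. In all, 27 member windows (37.0%) held 1 or more of the 3, against 12.1% of all windows. A match is a description of the letters and not a site of binding. The stretches below show matches in capitals, in 7 members of complexes I, II, IV and V, and are written on the strand of the gene.

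Cox6a1, NRF1 letters in 2 overlapping matches, chr5:115349101-115349130, minus strand: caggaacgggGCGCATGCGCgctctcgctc
Atp5g2, NRF1 letters in 2 overlapping matches, chr15:102671070-102671099, minus strand: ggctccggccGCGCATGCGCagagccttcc
Sdhb, NRF1 letters, chr4:140961206-140961235, plus strand: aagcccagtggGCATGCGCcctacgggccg
Cox6b1, ETS letters, chr7:30626125-30626154, minus strand: ctcctctcgcagCTTCCGGccagtcggaat
Ndufb7, ETS letters, chr8:83566726-83566755, plus strand: agcctagatgacCCGGAAGacactgaaggg
Ndufs3, ETS letters, chr2:90904731-90904760, minus strand: ccccgcgtccgcCCGGAAGaagagtcactg
Atp5j, YY1 letters, chr16:84835046-84835075, minus strand: aaagtgtaggaAAGATGGCGgagtcttagc

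Total counts ran from 15436372 to 18118687 per library. The labelled cell type was present in all libraries, since Pdgfrb and the pericyte list were detected throughout, but the libraries were mixed. In mean log2 CPM, endothelial markers stood at 9.01 in WT sham and 8.98 in WT HI, above the pericyte markers at 8.14 and 7.96. The share of each cell type was not measured. KO sham 1, KO sham 3, KO HI 2 and KO HI 3 stood apart. The mean log2 CPM of 12 neuron markers was 4.02 to 6.58 in these 4 and 0.39 to 3.05 in the other 11 libraries. Astrocyte markers followed the same split (7.60 to 10.10 against 5.27 to 7.44) and oligodendrocyte markers nearly so (4.64 to 7.78 against 0.84 to 4.66). Pericyte markers were low in the 4 (5.87 to 7.26 against 6.82 to 8.39), as were endothelial markers (7.18 to 8.45 against 8.19 to 9.16). No neuron or astrocyte marker was at 0 in any library, and of the oligodendrocyte markers Mog was at 0 in KO sham 6, WT HI 4 and WT HI 5. In such bulk libraries a smaller share of one cell type and less RNA per cell cannot be told apart.

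In WT cells the members spanned a wide range of levels. Per kilobase of the principal transcript, a scale that allows genes to be compared, the highest member was Atp5b, the catalytic beta subunit of ATP synthase, at 518.8 ± 24.0 CPM per kb (SD, n = 7 WT libraries). Cox4i1, the common isoform of a structural complex IV subunit, came next at 414.5 ± 27.9 CPM per kb. Atp5g3, one of 3 genes for the c ring of ATP synthase, and Atp5a1, its alpha subunit, followed at 306.3 ± 28.3 and 301.1 ± 12.2 CPM per kb, and these 2 neighbours did not differ beyond their spread.

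Complex I members were lower on this per-length scale than the leading members of complexes IV and V. The highest of complex I was Ndufb8, an accessory subunit, at 128.8 ± 8.84 CPM per kb. That of complex III was Uqcrh at 176.5 ± 7.25 CPM per kb, and that of complex II was Sdha at 88.9 ± 2.59 CPM per kb. The lowest tested members were the complex IV isoforms Cox7a1 and Cox6a2, at 1.85 ± 0.68 and 0.40 ± 0.36 CPM per kb. A length was found for 80 of the 82 members, and their principal transcripts ran from 360 to 3171 bases.

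The members barely varied among WT libraries. The SD of log2 CPM over the 7 WT libraries had a median of 0.11 across members, from 0.04 for Uqcrb, a complex III subunit, to 0.87 for the barely expressed Cox6a2. Over the 8 KO libraries the median SD was 0.43, from 0.21 to 1.20. The summed level of all members was 7775 ± 280 CPM over the 7 WT libraries, from 7394 to 8180 CPM. In KO sham it was 16108, 9800, 7426 and 7727 CPM in libraries 1, 3, 4 and 6, and in KO HI 8591, 11586, 12465 and 7757 CPM in libraries 1 to 4. Thus 3 KO libraries lay inside the WT range, KO HI 1 lay just above it, and the 4 libraries with the highest neuron markers lay well above it.

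**Figure D1:**
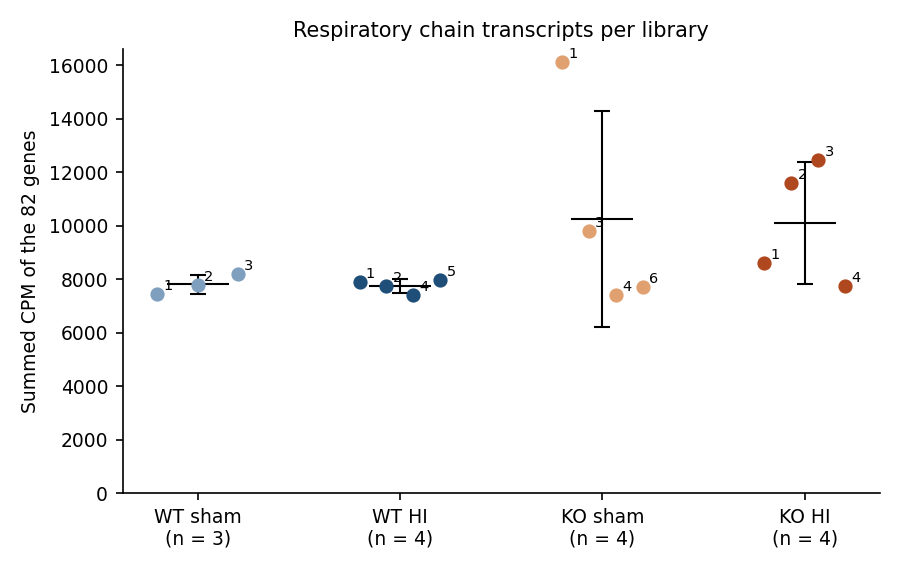
Summed CPM of the 82 respiratory chain genes in each library (points, with label numbers), by group, with the group mean and SD (black). The 7 WT libraries sit between 7394 and 8180 CPM, while KO sham 1 reaches 16108 CPM and KO HI 2 and 3 reach 11586 and 12465 CPM.

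The first comparison asked how the chain responded to hypoxia-ischemia in WT cells. With all libraries in the fit, member levels 24 h after the injury lay close to those in sham. The median log2 fold change over the 80 tested members was 0.03, against -0.01 over all tested genes, and 44 of the 80 estimates were above 0. Of the estimates, 73 lay within 0.25 of 0, and 71 of the 80 confidence intervals (95%) lay inside a 2-fold change in either direction, while 28 lay inside 1.5-fold. No member passed the test (edgeR quasi-likelihood, 0 of 80 called, 0 at an unadjusted p under 0.05, lowest adjusted p = 0.513), against 1.82% of all tested genes. DESeq2 and limma-voom also called 0, with 0 at an unadjusted p under 0.05. The groups did not overlap for 15 of 80 members (7 higher and 8 lower, 18.8%), against 31.7% of all genes in either direction. The median depended on the model: with neuron and choroid plexus marker levels as covariates it was 0.21, with 73 of 80 above 0 and 4 called, against 9.09% of all genes, and with the replicate number as a block it was 0.18, with 71 above 0 and 0 called.

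By complex, the medians in WT were -0.04 for the complex I core, 0.04 for its accessory subunits, -0.06 for complex II, 0.01 for complex III, 0.04 for complex IV and 0.02 for complex V. Ndufs7, the core subunit that holds the last iron-sulfur cluster of complex I, had the smallest p. It was measured at 38.6, 37.6 and 32.2 CPM in WT sham and at 41.0, 45.4, 42.2 and 42.6 CPM in WT HI. All HI libraries were above all sham libraries, and the log2 fold change was 0.24 ± 0.14.

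Cox5a, a nuclear-encoded complex IV subunit, was at 74.8, 76.4 and 73.9 CPM in WT sham and 95.1, 86.8, 88.7 and 86.1 CPM in WT HI. The groups did not overlap, and the log2 fold change was 0.25 ± 0.20 (adjusted p = 0.7, edgeR). Ndufa6, an accessory subunit of complex I, had 0.29 ± 0.19 on the log2 scale, with 31.6 to 32.1 CPM in sham and 35.2 to 45.0 CPM after HI. On the other side, Atp5h, the d subunit of the ATP synthase stalk, was at 114.7, 103.4 and 115.3 CPM in sham and 94.6, 86.3, 91.5 and 102.6 CPM after HI. Its groups did not overlap either, and its log2 fold change was -0.25 ± 0.25. Sdhb, the iron-sulfur subunit of complex II, and Uqcrc2, a core protein of complex III, completed the set with 0.09 ± 0.16 and -0.14 ± 0.14. With the spread taken from the 2 WT groups alone, Cox5a and Atp5h were the 2 of 79 tested members called (adjusted p = 0.0183 and 0.0495, edgeR), against 17.1% of all genes in that fit.

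In KO cells the members as a group had a response near 0 with all libraries in the fit. Of all single libraries, KO sham 1 moved this value the most when left out. The median log2 fold change was 0.00 over the 80 members, against -0.06 over all tested genes, 40 were above 0, and the range was -0.36 to 0.26. No member was called (edgeR, 0 of 80, 0 at an unadjusted p under 0.05, lowest adjusted p = 0.228), against 7.01% of all tested genes. DESeq2 and limma-voom called 0 as well, with 0 at an unadjusted p under 0.05. No member had groups that did not overlap (0 of 80), against 8.84% of all genes. Intervals for 70 members lay inside a 2-fold change. Without KO sham 1, the library with the highest member levels, the median was 0.34 with 78 of 80 above 0. Then 4 members were called higher, Ndufs8, Ndufa9, Sdhb and Ndufab1, against 13% of all genes in that fit. It kept KO HI 2 and 3, which had high neuron markers, while KO sham 3 was the only such sham library left. Without the 4 KO libraries with high neuron markers, on both sides, the median was 0.13. With microglia marker levels as a covariate the median was 0.31, with 77 above 0 and 0 called, against 1.72% of all genes. These marker levels did not overlap between KO sham (mean log2 CPM 7.48 to 8.31) and KO HI (8.37 to 9.46). Covariate and injury therefore cannot be told apart in that fit.

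Cox7a2l, a COX7A-related protein that joins complexes III and IV into supercomplexes, had the smallest p. It was at 230.1, 129.8, 145.1 and 140.0 CPM in KO sham 1, 3, 4 and 6 and at 111.3, 126.6, 155.4 and 109.2 CPM in KO HI 1 to 4. The groups overlapped through KO HI 3, and the log2 fold change was -0.36 ± 0.17 (adjusted p = 0.228, edgeR). In WT it was at 114.2, 116.6 and 115.1 CPM in sham and 108.1, 105.0, 94.3 and 92.0 CPM after HI, without overlap, with a log2 fold change of -0.21 ± 0.18. The core subunit Ndufv1, which binds NADH, had -0.18 ± 0.14 in WT and -0.20 ± 0.13 in KO.

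Libraries with high neuron markers stood on both sides of this KO comparison, so it was also fitted without the 4 KO libraries and WT sham 2, the WT library with the highest neuron markers. This left 2 libraries in KO sham, 2 in KO HI, 2 in WT sham and 4 in WT HI. Then 9 of 80 members were called in KO (8 higher and 1 lower after HI), against 16.8% of all tested genes, and the median was 0.10. The 8 higher were Atp5mpl (0.59 ± 0.12), Ndufab1 (0.39 ± 0.10), Cox7b (0.39 ± 0.11), Ndufb8 (0.38 ± 0.10), Atp5pb (0.36 ± 0.08), Ndufc2 (0.29 ± 0.08), Sdhb (0.28 ± 0.07) and Uqcrb (0.25 ± 0.07), and they came from complexes I, II, III, IV and V. Cox7a2l was the lower one, at -0.38 ± 0.09 (adjusted p = 0.0236, edgeR). In WT the same fit called 0 of 80 members, with 7 at an unadjusted p under 0.05, against 5.13% of all tested genes.

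The test of the difference between the KO and WT responses called none of the 80 members (edgeR, 0 at an unadjusted p under 0.05, every adjusted p at 1), against 0% of all tested genes. DESeq2 and limma-voom gave 0 members called and 0 at an unadjusted p under 0.05. The median difference was -0.01, and 52 of the 80 intervals lay inside a 2-fold change. It was 0.27 without KO sham 1, with 76 of 80 above 0, and -0.31 with the replicate number as a block, with 4 above 0, so the direction of the median was not settled.

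KO against WT looked different. In sham, all 80 estimates were above 0, against 56.2% of all tested genes. The median log2 fold change was 0.44 against 0.05 over all tested genes, and the range was 0.05 to 2.71. Still, no member was called (edgeR, 0 of 80, lowest adjusted p = 0.477), against 0.0135% of all tested genes, and 9 members had an unadjusted p under 0.05. DESeq2 and limma-voom called 0 too, with 14 and 2 members at an unadjusted p under 0.05. Without KO sham 1 the median was 0.15, with 67 of 80 above 0. All 7 members whose groups did not overlap were higher in KO (8.75%), against 4.63% of all genes higher without overlap.

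After HI all 80 estimates were above 0, against 56.3% of all tested genes. The median was 0.43 against 0.06 over all tested genes, and the range was 0.02 to 1.68. No member was called (edgeR, 0 of 80, lowest adjusted p = 0.0817), against 12.4% of all tested genes, and 12 had an unadjusted p under 0.05. DESeq2 and limma-voom called 0, with 11 and 8 at an unadjusted p under 0.05. KO libraries were above all WT libraries without overlap for 22 members (27.5%), against 9.89% of all genes. Without KO sham 1, which is not part of this comparison but shares the fitted spread, 15 members were called, against 24.4% of all genes in that fit. Without KO HI 4, Ndufa9 and Atp5g2 were called, against 18.3% of all genes. All 80 estimates also stayed above 0 in both KO comparisons with RLE or upper quartile factors, DESeq2 and limma-voom.

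**Figure D2:**
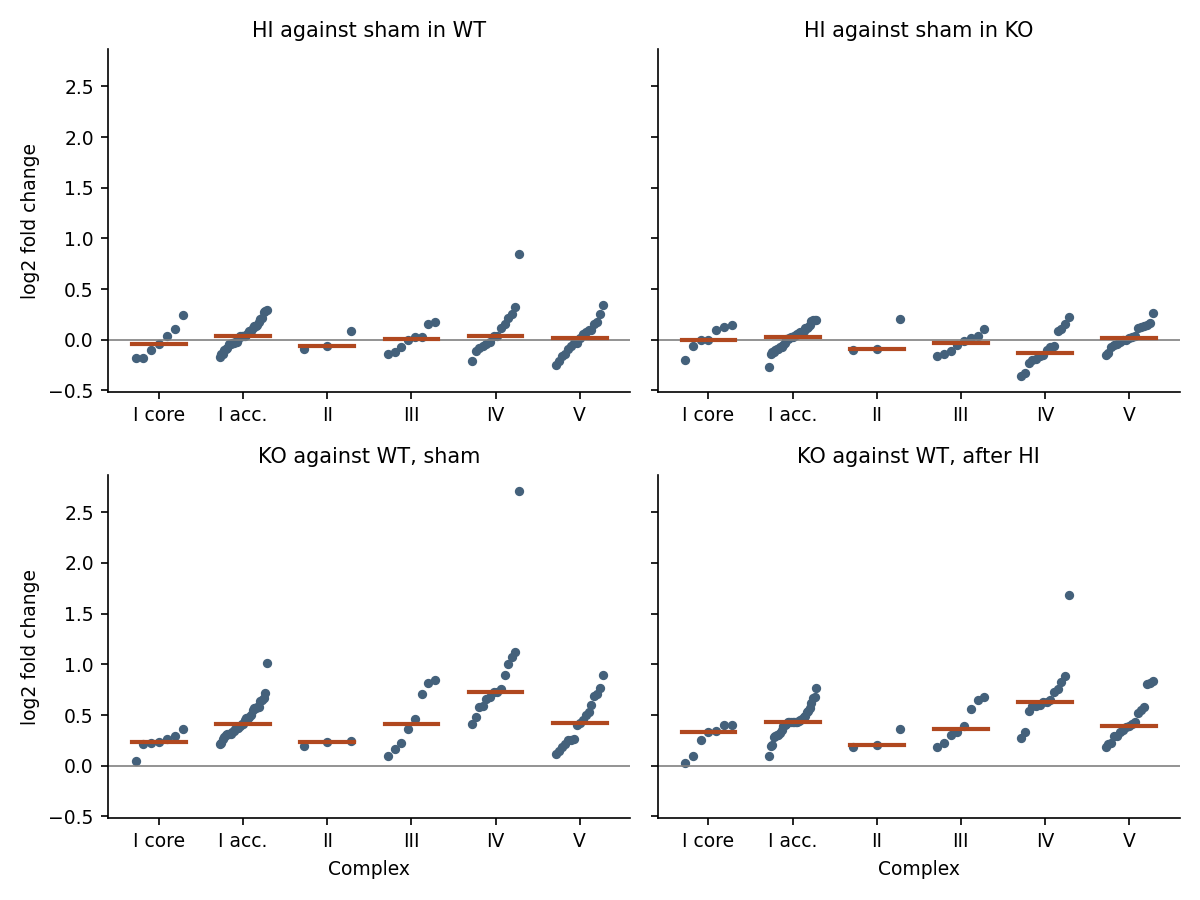
Log2 fold change (vertical axis) of each of the 80 tested members (points) by complex (horizontal axis), with the median (bar), in the 4 pairwise comparisons. Members scatter around 0 for HI against sham in both genotypes, and lie above 0 in KO against WT, with complex IV highest at medians of 0.73 in sham and 0.63 after HI.

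The same complexes stood at the ends of the order in both KO comparisons. These share no library, but each holds KO libraries with high neuron markers (KO sham 1 and 3, KO HI 2 and 3). Complex IV had the highest medians, 0.73 in sham and 0.63 after HI. Complex I accessory subunits had 0.41 and 0.43, complex V 0.42 and 0.39, and complex III 0.41 and 0.36. The complex I core (0.24 and 0.33) and complex II (0.23 and 0.21) were lowest. This order was not uniform in the other KO libraries. Relative to the mean of the 7 WT libraries, the complex IV median was -0.06 in KO sham 4 and 0.02 in KO HI 4. That of the complex I core was -0.03 and 0.14 there. In KO sham 6 and KO HI 1 complex IV was the higher, at 0.08 and 0.24 against -0.04 and 0.16.

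The KO libraries differed widely in member levels, and also over all genes. Pairs of libraries within a group had a chi-square of counts per degree of freedom of 44.6 to 384 in KO and 11.3 to 46.7 in WT. Relative to the mean of the 7 WT libraries, the median member of KO sham 1 and 3 stood at 1.04 and 0.39 on the log2 scale, and that of KO HI 2 and 3 at 0.65 and 0.71. In the other KO libraries it was -0.07 and 0.04 (KO sham 4 and 6) and 0.14 and 0.03 (KO HI 1 and 4). The number of members above all 7 WT libraries was 79, 69, 77 and 78 of 80 in the first 4 libraries, and 3, 12, 40 and 20 in KO sham 4, KO sham 6, KO HI 1 and KO HI 4.

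These 4 libraries are those with the highest neuron markers. In KO against WT, 12 of 12 neuron markers were above 0 in both conditions, with median log2 fold changes of 2.67 in sham and 3.33 after HI. Of these markers 0 were called in either, against 0.0135% of all tested genes in sham and 12.4% after HI. The summed level of the neuron markers was 72.8 to 204.2 CPM in WT sham and 59.9 to 61.3 CPM in WT HI. It was 47.3 to 1366 CPM in KO HI and 69.1 to 2258 CPM in KO sham. Without the 4 libraries and WT sham 2, the member median in sham was 0.00 in place of 0.44, with 43 of 80 above 0 and 0 of 80 called (8 at an unadjusted p under 0.05), against 0.0342% of all genes. After HI it was 0.06 in place of 0.43, with 55 of 80 above 0 and 5 called, all higher, against 23.5% of all genes. The part of neural RNA in the KO values of single members was not tested.

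**Figure D3:**
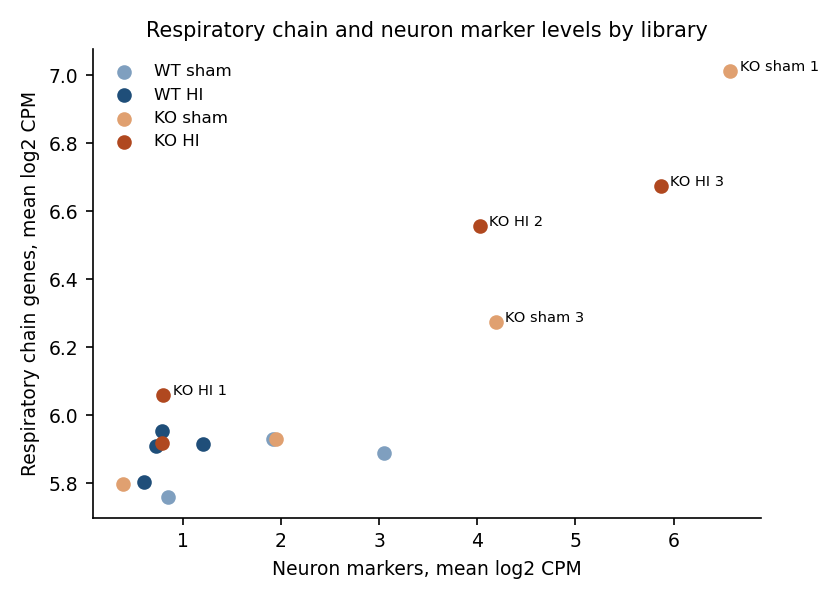
Mean log2 CPM of the respiratory chain genes (vertical axis) against mean log2 CPM of 12 neuron markers (horizontal axis), 1 point per library, coloured by group. The 4 raised KO libraries lie apart at the upper right, and KO HI 1 lies above the other libraries of low neuron marker level.

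**Figure D4:**
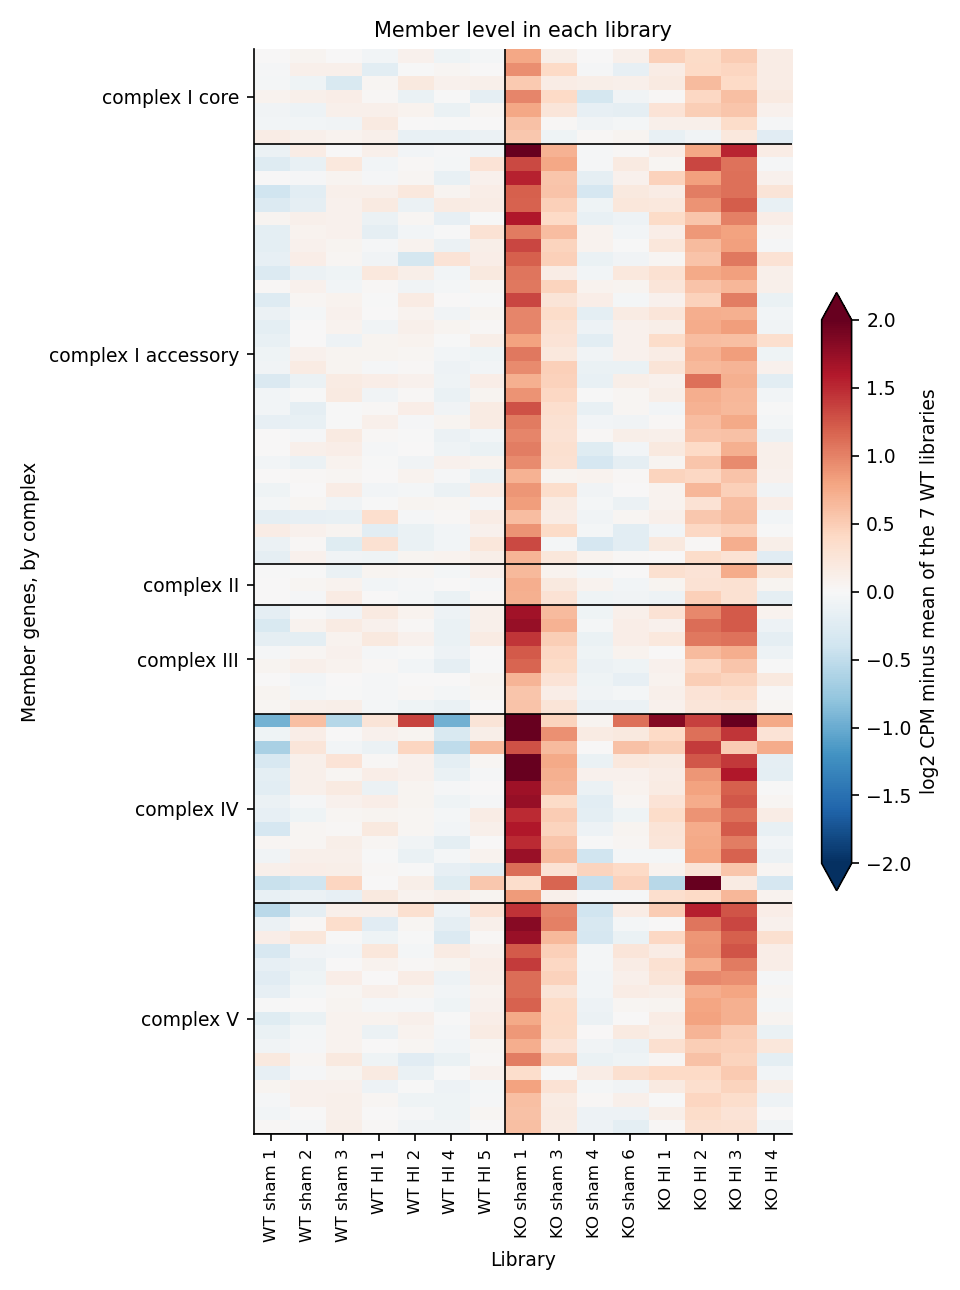
Log2 CPM of each of the 80 tested members (rows, by complex) minus its mean over the 7 WT libraries, in each of the 15 libraries (columns), with colours limited to a difference of 2 in either direction. KO sham 1, KO HI 2, KO HI 3 and, more weakly, KO sham 3 stand above the WT mean in every complex, most in complex IV.

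Complex IV subunits had the largest shift in each of the 4 libraries, with medians of 1.65 and 0.59 (KO sham 1 and 3) and 0.85 and 1.19 (KO HI 2 and 3). Complex II had 0.71, 0.20, 0.29 and 0.30 in the same libraries. Cox6a1, the non-muscle isoform of subunit VIa, was at 125.5 to 157.2 CPM in the 7 WT libraries and 695.7, 234.4, 152.5 and 152.8 CPM in KO sham 1, 3, 4 and 6. In KO HI 1 to 4 it was at 158.3, 265.7, 437.1 and 125.4 CPM. Outside the 4 libraries, KO sham 4 and 6 lay inside the WT range and KO HI 1 and 4 at its edges. The log2 fold changes of 1.12 ± 0.52 in sham and 0.76 ± 0.47 after HI did not pass the test (edgeR, adjusted p = 0.477 and 0.279).

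Cox7a2, the liver and general isoform of subunit VIIa, had the smallest p of complex IV after HI. It was at 43.9, 51.4 and 46.8 CPM in WT sham, 49.7, 48.4, 37.8 and 50.9 CPM in WT HI, 204.2, 87.8, 52.3 and 53.3 CPM in KO sham and 61.6, 100.8, 126.5 and 56.3 CPM in KO HI. KO libraries were above WT libraries without overlap in both conditions, by a small margin in KO sham 4 and 6 and KO HI 4. Its log2 fold changes were 1.07 ± 0.43 in sham and 0.89 ± 0.39 after HI (adjusted p = 0.477 and 0.145, edgeR).

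The isoforms of a family did not all take part to the same degree. Cox6a2, the heart and muscle form, was at 0.06 to 0.74 CPM in WT libraries, at 3.95 CPM in KO sham 1 and at 2.18 CPM in KO HI 3, and at 0.23 to 1.07 CPM in the other KO libraries. Such levels rest on few counts, and its log2 fold change of 2.71 ± 1.12 in sham spans a wide interval. Cox7a1, the muscle form of subunit VIIa, was at 0.40 to 1.13 CPM in WT and 0.69 to 2.02 CPM in KO.

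Cox6b2, the testis form of subunit VIb, followed another order. It was at 4.40, 4.53 and 8.19 CPM in WT sham, 6.06, 6.56, 5.07 and 8.77 CPM in WT HI, 7.68, 13.7, 4.34 and 8.33 CPM in KO sham, and 4.07, 24.2, 6.78 and 4.75 CPM in KO HI. The high libraries were KO HI 2 and KO sham 3, which also had the highest choroid plexus markers (mean log2 CPM 9.24 and 8.50, against 1.99 to 7.48 in the others). Its sister Cox6b1 was instead highest in KO sham 1 and KO HI 3, at 318.4 and 223.0 CPM, against 87.2 to 103.5 CPM in WT. The part of choroid plexus RNA in these values was not tested.

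The 3 genes for the c ring of ATP synthase encode the same mature protein with different import signals. Atp5g1 was at 46.4 to 84.3 CPM in WT, at 183.6 and 132.1 CPM in KO sham 1 and 3 and at 198.7 and 161.2 CPM in KO HI 2 and 3. Atp5g3 was at 185.3 to 240.4 CPM in WT and at 370.5, 287.9, 383.3 and 359.2 CPM in the same 4 libraries. Atp5g2 stayed nearer to WT, at 127.8 to 162.5 CPM in WT and 183.2, 142.4, 188.8 and 205.6 CPM in these 4. Log2 fold changes in KO against WT after HI were 0.81 ± 0.37 for Atp5g1, 0.30 ± 0.13 for Atp5g2 and 0.39 ± 0.20 for Atp5g3, and none passed the test (edgeR).

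The other rare isoforms were at the edge of detection. Cox8b, the muscle form of subunit VIII, had at most 0.30 CPM in any library, while its counterpart Cox8a had 126.1 to 189.4 CPM in WT and 706.0 and 419.5 CPM in KO sham 1 and KO HI 3. Cox7b2 was at 0 in 12 of the 15 libraries and at most at 0.07 CPM.

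The smallest p after HI in KO against WT belonged to complex I. Ndufa9, an accessory subunit near the quinone site, was at 109.3, 114.4, 106.2 and 99.2 CPM in WT HI and at 148.4, 145.1, 161.3 and 114.7 CPM in KO HI. All KO HI libraries were above all WT HI libraries, KO HI 4 barely so. The log2 fold change was 0.41 ± 0.15 (adjusted p = 0.0817, edgeR). In sham it was 0.22 ± 0.16, with 109.2 to 111.4 CPM in WT and 175.5, 112.9, 114.2 and 110.5 CPM in KO.

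Ndufs8, a core subunit with iron-sulfur clusters, was at 49.3, 54.3, 48.2 and 49.8 CPM in WT HI and 71.1, 66.4, 72.1 and 56.3 CPM in KO HI. The groups did not overlap, and the log2 fold change was 0.40 ± 0.15 (adjusted p = 0.0905, edgeR). Ndufv1 of the same complex was the flattest member, at 0.05 ± 0.15 in sham and 0.02 ± 0.13 after HI.

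Sdhb and Atp5pb, the b subunit of the ATP synthase stalk, were higher in all KO HI libraries than in all WT HI libraries. The same held for 9.89% of all genes. Sdhb was at 71.6, 71.2, 67.4 and 73.4 CPM in WT HI and 85.9, 83.4, 115.0 and 80.8 CPM in KO HI. Atp5pb was at 188.2, 191.8, 180.1 and 192.1 CPM in WT HI and 233.9, 263.8, 261.3 and 219.6 CPM in KO HI. Neither was called with all libraries (0.36 ± 0.15 and 0.38 ± 0.15, adjusted p = 0.121 and 0.117, edgeR).

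Atp5mpl, a small ATP synthase subunit, was at 35.4, 37.1, 30.8 and 37.9 CPM in WT HI and 49.7, 69.1, 85.6 and 46.8 CPM in KO HI. Its groups did not overlap, and its log2 fold change with all libraries was 0.83 ± 0.37 (adjusted p = 0.145, edgeR).

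The 5 members called without the 5 libraries were Atp5mpl (0.43 ± 0.10), Ndufs8 (0.32 ± 0.10), Ndufb8 (0.30 ± 0.09), Atp5pb (0.25 ± 0.07) and Sdhb (0.21 ± 0.06). With all libraries in the fit, microglia markers differed between the same groups. Of these, 12 of 12 were called higher in KO HI (median 1.75), against 5.96% of all tested genes. The summed levels of the microglia markers were 1922 to 5121 CPM in WT HI and 6521 to 13915 CPM in KO HI. Of 14 pericyte markers, 5 were called lower, with a median of -1.11, against 6.46% of all tested genes. Endothelial markers had 9 of 12 called lower and a median of -1.01. Fibroblast and smooth muscle markers had 0 and 1 of 7 called lower, with medians of -1.24 and -0.97. The part of these cell types in the values of the 5 members was not tested.

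The remaining members with the smallest p in their complex in sham were Ndufa2 (0.57 ± 0.24), Uqcrq (0.85 ± 0.38) and Atp5j2 (0.69 ± 0.30), of complexes I, III and V. Uqcrq, a small complex III subunit, was at 53.0 to 68.3 CPM in WT and at 193.2, 93.2, 56.7 and 64.7 CPM in KO sham. Only KO sham 1 and 3 stood above the WT range. Uqcrfs1, the Rieske iron-sulfur protein of complex III, had -0.16 ± 0.23 for HI in KO and turned to 0.19 without KO sham 1, and Uqcrb had 0.30 ± 0.16 in KO against WT after HI.

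Genes close to the chain but outside the member list did not pass the test in any comparison (8 genes, edgeR). Over all tested genes, 0% to 12.4% were called, depending on the comparison. Ndufa4, a complex IV subunit despite its name, had 0.73 ± 0.37 in sham and 0.83 ± 0.34 after HI in KO against WT, alongside the complex IV members. Its paralog Ndufa4l2 and the lung and low-oxygen isoform Cox4i2, both typical of pericytes, pointed the other way. Ndufa4l2 was at 53.5 to 81.1 CPM in WT HI and 35.7, 28.1, 18.1 and 52.5 CPM in KO HI, with no overlap. Its log2 fold change was -1.04 ± 0.35 (adjusted p = 0.0695, edgeR). Of 14853 tested genes, 1709 were lower without overlap in this comparison. Ndufa4l2 is itself on the list of 14 pericyte markers, which were all below 0 there, with a median of -1.11. Cox4i2 had -0.83 ± 0.37. Iscu was at 43.9 to 51.0 CPM in WT, with 0.26 ± 0.10 in sham and 0.20 ± 0.09 after HI. Cox10, which acts in making heme A for complex IV, had 0.09 ± 0.09 and 0.09 ± 0.08.

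In KO sham against WT sham, 0 genes were called in any of the other mitochondrial gene lists (edgeR), against 0.0135% of all tested genes. The medians of these lists were lower than that of the chain, a difference that was not tested. Medians were 0.14 for 43 assembly factors, 0.17 for 13 citric acid cycle genes, 0.16 for 78 mitochondrial ribosomal proteins, -0.004 for 14 biogenesis regulators, 0.28 for 9 mitophagy genes and 0.12 for 13 outer membrane and import genes, beside 0.44 for the chain. Cytosolic ribosomal proteins had 0.20. A nearly uniform direction was not particular to the chain. Above 0 were 13 of 13 citric acid cycle genes, 73 of 78 mitochondrial and 78 of 80 cytosolic ribosomal proteins, but 7 of 14 biogenesis regulators. In KO HI against WT HI these counts were 13, 72, 79 and 9. The medians there were 0.27, 0.23, 0.25 and 0.08, beside 0.43 for the chain.

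For HI in KO, 2 of 13 outer membrane and import genes rose, the channel gene Vdac2 (0.34 ± 0.09) and the import pore gene Tomm40 (0.45 ± 0.12), and the list median was 0.28. In this comparison 4.88% of all tested genes were called higher. Sco2, a copper chaperone of complex IV, rose by 0.64 ± 0.14 as the 1 called of 43 assembly factors. Of 78 mitochondrial ribosomal proteins, 3 rose (Mrpl15, Mrpl36 and Mrps17, at 0.30 to 0.40), and of the mitophagy list Phb2, a prohibitin, rose by 0.36 ± 0.08 (1 of 9 tested).

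In KO HI against WT HI, Vdac2 was again higher (0.35 ± 0.09, adjusted p = 0.0202, edgeR), as were 4 of 78 mitochondrial ribosomal proteins, Mrps15, Mrpl18, Mrps2 and Mrpl15. Of 80 tested cytosolic ribosomal proteins, 4 were called higher, among them Rps27l at 0.35 ± 0.09. Over all tested genes 5.96% were called higher, so both counts of ribosomal proteins were near the background. No citric acid cycle or biogenesis gene was called in this comparison. In WT, Mrpl52 was the 1 gene of these lists called after HI. In this comparison 1.38% of all tested genes were called higher. Mrpl52 rose by 0.66 ± 0.15 on the log2 scale, with means of 11.8 CPM in WT sham and 18.7 CPM in WT HI.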

How the data were processed

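The study deposited 1 table of gene-level expected counts for 15 libraries, not normalized by the authors. Between 3.12% and 3.92% of a library's values had a fractional part, and the submitters' processing notes list RSEM 1.3.1; the unit was inferred from both. These also name HISAT2 2.1.0, Bowtie2 2.4.4, Bowtie, DESeq2 1.4.5 and the mm39 build, and the role of each tool and the strand setting are not given in the sources used here. RNA was extracted with a micro kit, per the labels. Of 65535 lines, 47643 held no values. Expected counts were rounded. Entrez identifiers were matched to symbols with a RefSeq table (17862 of 17892 lines with values). Genes passed edgeR's filter on low counts (minimum 10). One edgeR 4.0.16 quasi-likelihood model with 4 group means and TMM factors was fitted to all 15 libraries, and p-values were adjusted by Benjamini-Hochberg over 14853 genes, with calls at 0.05. CPM use the TMM-scaled library sizes, and log2 CPM a prior count of 2. DESeq2 1.42.0, limma 3.58.1, other scalings, covariates and left-out libraries were alternatives. The fits were tried on simulated counts with the same spread for every gene and no mixed cell types. That setting did not cover the differences between the KO libraries. Members, gene lists and the 5 left-out libraries were chosen with earlier results of these data known. Named members were those with the smallest p of each complex in each pairwise comparison, the isoform families, the genes left out by the rule and up to 4 called genes from each other list. Further members and the promoter stretches were named after their values were seen. miR-210 is not measured by this table, so the knockout was not checked here.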

Additional observations from a re-analysis of the deposited data

Results flagged for a closer look

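In groups of 4 libraries, 12 of 105 sets of values held a library whose gap to its nearest neighbour took up an unusually large share of the group's range. Chance flags about 1 set in 20 where sets are independent. These sets came from the same libraries and were not independent, so that rate is no standard for their number. Of the 12, 9 lay in KO sham, each with KO sham 1 far above the other libraries. The share was 0.892 for Cox5a, 0.849 for Cox6a1, 0.9 for Cox6a2, 0.847 for Cox7a2l, 0.833 for Ndufa2, 0.943 for Ndufa9, 0.898 for Ndufs7, 0.897 for Ndufs8 and 0.869 for Sdhb. In WT HI, library 1 lay apart for Ndufv1, with 112.4 CPM against 94.8 to 95.9 CPM and a share of 0.934. In KO HI, library 2 lay apart for Cox6b2 (0.866) and library 3 for Sdhb (0.85).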

How the results depend on the processing

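Of the recomputed counts and medians, 235 stayed near the reported value and 23 moved, where a count had to stay within 1.5 times the reported one and a median within 1 SD between libraries of a group, in mean log2 CPM of the members. Of the recomputed fold changes of single members, 591 kept direction and side of the threshold, 27 became called in the same direction and 6 reversed. With the spread taken from the 2 groups compared, 2 members were called for HI in WT and 4 in KO against WT after HI, against 17.1% and 13% of all genes. Without the 5 libraries, 9 were called for HI in KO and 5 in KO against WT after HI, against 16.8% and 23.5% of all genes, and the latter's median fell to 0.0587, and the sham median to 0.00425. Without the 4 KO libraries alone, an alternative chosen after seeing the data, 1 was called for HI in WT, 12 for HI in KO, 7 in KO against WT after HI (median 0.0859) and 1 for the difference of responses, against 12.2%, 19.8%, 27.2% and 1.67% of all genes, and the sham median was 0.00847. With neuron and choroid marker covariates, 4 were called for HI in WT (median 0.208) and 1 for HI in KO, against 9.09% and 17.6% of all genes, and the median in KO against WT after HI was 0.0614. With a microglia covariate the medians were -0.108 for HI in WT, 1.07 in KO against WT after HI and 0.406 for the difference. Microglia marker levels did not overlap between WT HI (mean log2 CPM 6.46 to 7.88) and KO HI (8.37 to 9.46). Covariate and genotype therefore cannot be told apart after HI, where 0.00673% of all genes were called in that fit. The fold change of Uqcrfs1 for HI in KO turned to 0.128 without the 5 libraries, 0.16 without the 4 and 0.136 with the microglia covariate, and ran from -0.305 to 0.191 when 1 library was left out. That of Atp5g2 turned to -0.0517 and -0.0182 without the 5 and the 4. Leaving out each library in turn gave 0 to 4 members called for HI in KO and 0 to 15 in KO against WT after HI, the most without KO sham 1 in both. The cause of these changes was not tested. With the replicate number as a replicate block, 0 members were called in any comparison. The medians were 0.182 for HI in WT, -0.115 for HI in KO, 0.64 in KO against WT in sham, with 51 members at an unadjusted p under 0.05 in place of 9, 0.352 after HI and -0.312 for the difference. Same-numbered libraries correlated at 0.279 and 0.197 for HI in WT, each above its correlation with other numbers, at -0.784, 0.259 and 0.793 for HI in KO, at -0.613 and 0.408 in KO against WT in sham, and at 0.043, 0.283 and 0.403 after HI. The labels tie no number to a shared animal or day, and not every pair passed 0.1, so the numbers were not taken to pair the libraries. In KO against WT the intervals lay inside a 2-fold change for 42 of 80 members in sham and 48 after HI, so smaller differences were not resolved for the others.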

Other observations

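Across 76 members with a mean of at least 5 CPM in WT, the shift of a library from the WT mean was set against the log2 length of the principal transcript. Pearson's r was -0.39 and -0.34 (KO sham 1 and 3) and -0.47 and -0.5 (KO HI 2 and 3), so shorter members tended to stand higher there. It was -0.37 in KO sham 6, whose members were near WT in level, and 0.03, 0.01 and 0.21 in KO sham 4, KO HI 1 and KO HI 4. These are descriptions across genes of single libraries, which are not independent replicates, and complex IV has the shortest median transcript of the complexes.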
